A study of Mus musculus with 32 samples.

Results

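Fgf21, its receptor components Klb and Fgfr1, and 7 other genes for factors that adipose tissue secretes (Bmp8b, Nrg4, Lep, Adipoq, Retn, Cfd and Rbp4) were followed in mouse brown adipose tissue. The genes were taken by name, and all 19 array probes that carry one of the 10 names were in the value table of 37304 probes, so no member was lost to the filter on dim signals. RNA of each of 32 arrays came from the brown fat of mice that had been fasted for 24 h and then refed for 18 h with food and water containing 20% glucose. There were 4 groups of 8 arrays. Total ChREBP KO mice are Mlxipl-null and lack both the α and the β isoform of the carbohydrate response element binding protein, whereas ChREBPβ KO mice carry a CRISPR/Cas9 deletion of the exon that only the β transcript uses, and each line had its own WT group. According to the study these were C57BL6/J males, and each deletion was present in every tissue of the body, so that brown fat was sampled from animals whose liver and white fat lacked the same isoforms. The mice's age was not given in the sources used here, and the labels number the replicates within a group without naming animals, so p-values measure the spread between these arrays.

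ChREBP is a transcription factor that responds to sugar metabolites and binds E-box pairs in the promoters of glycolytic and lipogenic genes. FGF21 is a hormone made chiefly by liver, and also by brown fat, that lowers blood glucose and triglycerides. It signals through FGF receptor 1 only where the co-receptor β-Klotho, the product of Klb, is present. BMP8B and NRG4 are signals that brown fat releases towards its own cells, nerves and liver, while leptin, adiponectin, resistin, adipsin (Cfd) and retinol binding protein 4 are better known from white fat.

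All levels below are log2 values of the normalized median spot intensity, so that 1 unit is a doubling. Values are those of a gene's brightest probe unless another probe is named, a gene or probe was called at a Benjamini-Hochberg adjusted p under 0.05 in limma, and no probe's level is set against another probe's. Differences are KO minus WT of the same line. In this bulk tissue, fewer cells of a type and less RNA per cell cannot be told apart.

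The arrays differed in ways other than genotype. The brightest Mlxipl probe stood at 16.15 in total-line WT against 13.67 in total ChREBP KO, and at 16.34 in the WT of the β line against 14.84 in ChREBPβ KO. The probes of Mlxipl did not all agree. Probe A_55_P2728555 gave differences of -0.77 in total ChREBP KO and -1.14 in ChREBPβ KO. Probe A_55_P2045158 gave 0.14 and -0.08 and was called in neither. Of 11 brown adipocyte markers, 5 rose and 2 fell in total ChREBP KO (median 0.41) and 1 rose in ChREBPβ KO (Ebf2, by 0.46). Ucp1 and Cidea, which define the cell type, had group means of 18.43 to 18.53 and 18.37 to 18.46, whereas Dio2, which activates thyroid hormone, rose by 2.19 in total ChREBP KO, Ppargc1a, a coactivator of mitochondrial genes, rose by 1.18 and Elovl3, a fatty acid elongase, fell by 3.16 on the log2 scale. The part of these shifts in the members' differences was not tested. Skeletal muscle markers had a mean of 12.86 to 16.13 on every array of the total-line WT group and 14.33 to 15.86 in total ChREBP KO, but 5.50 to 11.87 in β-line WT and 5.62 to 11.26 in ChREBPβ KO. The mean of 11 liver markers lay above 9.5 on 1 array of the total-line WT group, 0 arrays of total ChREBP KO, 4 of β-line WT and 5 of ChREBPβ KO, reaching 12.81. Of 9 macrophage markers, 8 fell in total ChREBP KO (median -0.80), and their part in the members' differences there was not tested. Hybridised arrays were washed in 4 batches, each of which held arrays of all 4 groups.

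In total ChREBP KO, 6 of the 10 genes were called, 2 lower and 4 higher, and in ChREBPβ KO only 1 was called, which was higher. Over all 24523 gene names, 44.1% were called in total ChREBP KO, 22.9% higher and 21.1% lower, and 2.7% in ChREBPβ KO, 1.37% higher and 1.33% lower. The median difference of the 10 genes was 0.15 in total ChREBP KO against 0.01 for all genes, and 0.00 against 0.00 in ChREBPβ KO. For 5 of the 10 genes the 8 total ChREBP KO arrays did not overlap the 8 WT arrays, as was the case for 16.6% of all genes. In the β line this was so for 0 of the 10 genes and for 0.432% of all genes.

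**Figure D1:**
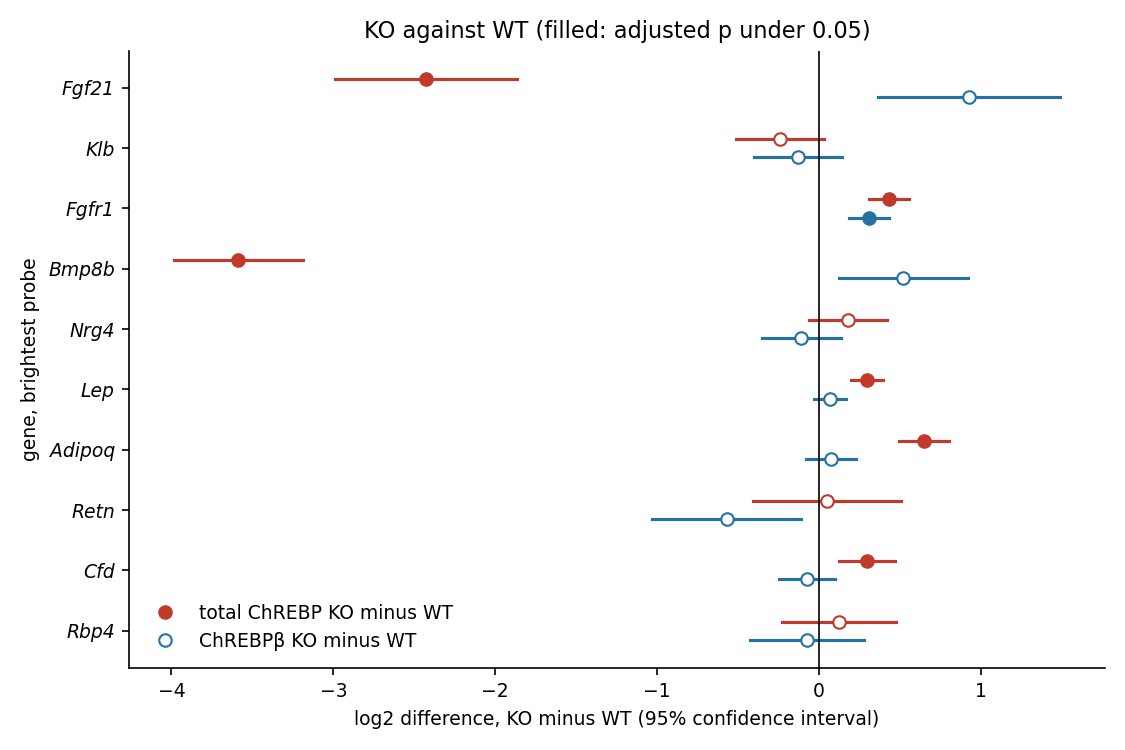
Log2 difference of KO minus WT (horizontal axis) with its 95% confidence interval for the brightest probe of each of the 10 genes (vertical axis), in total ChREBP KO (red) and ChREBPβ KO (blue), 8 arrays a group; filled points were called. Fgf21 and Bmp8b stand far to the left in total ChREBP KO and to the right of 0 in ChREBPβ KO, and Fgfr1 is filled in both.

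Fgf21 fell in total ChREBP KO and was the gene, with Bmp8b, whose values parted most between the KO lines. Its single probe (A_52_P235347) lies at chr7:52869305-52869364 of mouse build mm9 on the minus strand; whether probes fall in an exon or an untranslated region was not assigned, because the annotation used here is of another build. In total-line WT the lowest, median and highest of the 8 arrays were 8.13, 8.68 and 9.43, and in total ChREBP KO they were 5.88, 6.32 and 6.88. The highest KO array thus lay below the lowest WT array. The difference was -2.42 ± 0.28 (SE; 95% confidence interval -2.99 to -1.86), a 5.37-fold lower level (limma, adjusted p = 1.19e-08), and an exact permutation test of the means over all 12870 splits of the 16 arrays gave a two-sided p = 0.000155, the smallest it can give. Within the 4 wash batches the difference ran from -2.73 to -2.20.

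Fgf21 leaned the other way in ChREBPβ KO without being called. Its spot cleared background everywhere, but Feature Extraction flagged it as found on only 4 of 8 ChREBPβ KO arrays. In β-line WT and total-line WT the spot was found on 6 of 8 arrays each, and in total ChREBP KO on 7 of 8. Arrays without that flag were kept in the Fgf21 comparisons, and their part in the differences was not tested. The lowest, median and highest arrays were 7.24, 8.72 and 9.91 in WT and 8.04, 9.67 and 10.38 in ChREBPβ KO, so the groups overlapped over most of their range, although the WT mean was exceeded on 7 of 8 KO arrays. The difference was 0.93 ± 0.28 (interval 0.37 to 1.49; limma, adjusted p = 0.0652), whereas the exact permutation test of this single gene, which carries no adjustment over genes, gave p = 0.0235. The call changed with the array set and the model: with β-line WT replicate 5 (the highest of its group) left out the difference was 1.11 (adjusted p = 0.00998), with ChREBPβ KO replicate 2 (the lowest of its group) left out 1.15 (0.00813), and with a block for wash batch 0.78 (0.166). It was positive in all 4 wash batches, from 0.22 to 1.40, and of the 2 slides that held an array of each β-line group, 1 gave 1.34 and the other -0.69.

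The liver also expresses Fgf21, and the liver list varied between these arrays. The 3 ChREBPβ KO arrays with a low liver list had Fgf21 at 9.26 to 9.69 and the 5 with a high one at 8.04 to 10.38. In β-line WT the values were 7.24 to 8.85 on the 4 arrays with a low list and 8.29 to 9.91 on the 4 with a high one. Without the 10 arrays of high liver list the β-line difference was 1.20 (limma, adjusted p = 0.0807, and exact permutation p = 0.0571), and the total-line difference was -2.44 (limma, adjusted p = 5.06e-09). The 3 KO and 4 WT arrays left in the β line did not overlap. So few arrays allow few splits, so this permutation p cannot be set against that of the full groups.

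**Figure D2:**
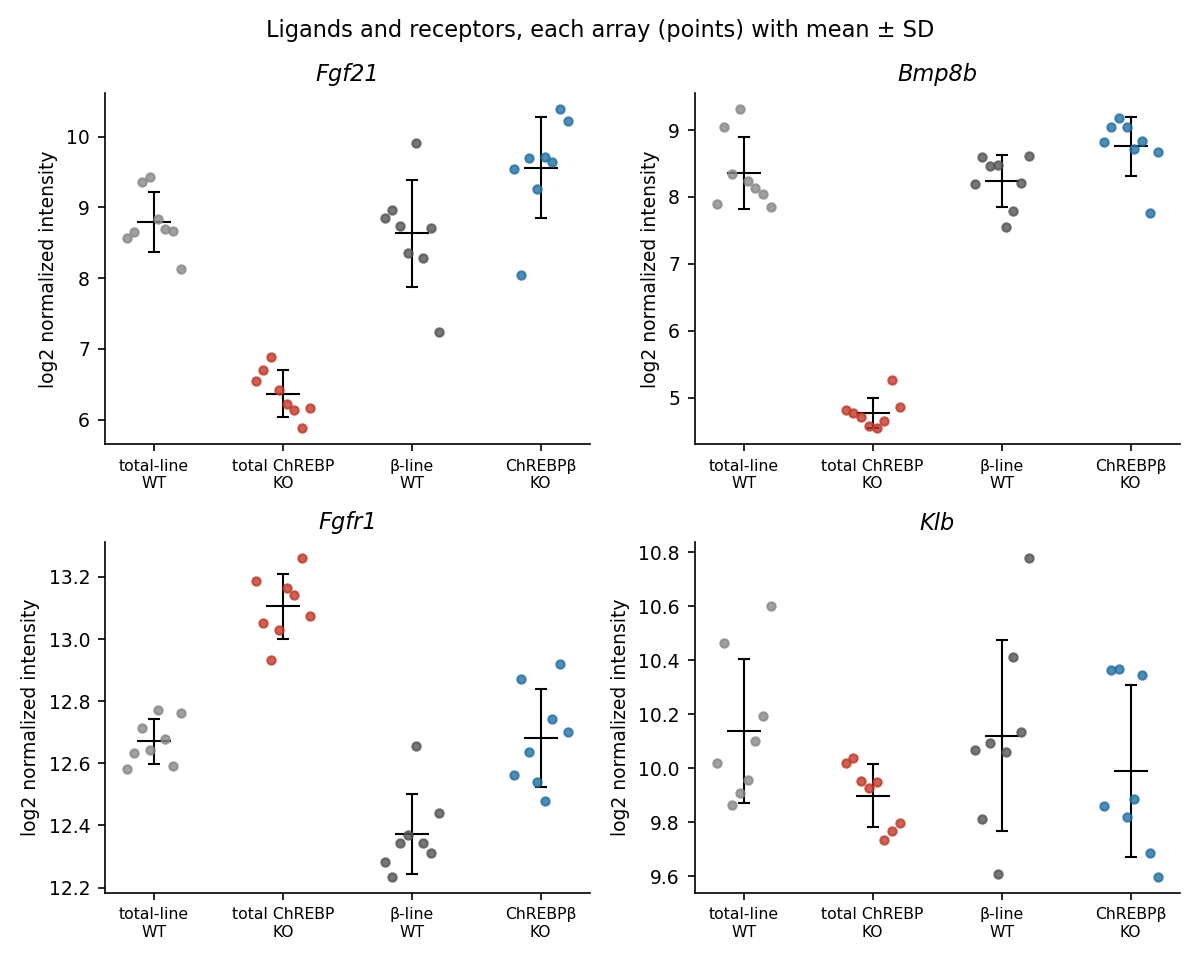
Log2 normalized intensity (vertical axis, not starting at 0) of Fgf21, Bmp8b, Fgfr1 and Klb on each of the 8 arrays of the 4 groups (points), with the group mean and SD (bars). The total ChREBP KO arrays of Fgf21 (5.88 to 6.88) and Bmp8b (4.54 to 5.26) lie below all other arrays, while Klb overlaps in all groups.

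The size of the KO effects was compared between the lines, which does not test their signs. The ChREBPβ KO effect exceeded the total ChREBP KO effect on Fgf21 by 3.35 ± 0.39 (limma, adjusted p = 6.63e-08). This difference between effects was called for 5 of the 10 genes, against 25.2% of all genes. Ordered by group mean, Fgf21 was lowest in total ChREBP KO (6.37 ± 0.33, SD), then came β-line WT (8.63 ± 0.75), total-line WT (8.79 ± 0.43) and ChREBPβ KO (9.56 ± 0.71). The WT groups did not differ beyond their spread (-0.16, adjusted p = 0.682), and the ranges of total-line WT and ChREBPβ KO overlapped. Fgf21 varied more between arrays of 1 group than most genes did: its pooled SD of 0.58 was larger than that of 97.9% of all gene names, whose median was 0.16.

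The 250 bases upstream of the RefSeq starts of Fgf21 and Bmp8b (GRCm38.p6, each 5′ to 3′ on the strand of its gene) are shown because these genes fell most in total ChREBP KO. Fgf21 is at chr7:45615491-45615740 (minus strand) and Bmp8b at chr4:123104911-123105160 (plus strand). Capitals mark each match to CACGNG or its reverse complement.
Fgf21: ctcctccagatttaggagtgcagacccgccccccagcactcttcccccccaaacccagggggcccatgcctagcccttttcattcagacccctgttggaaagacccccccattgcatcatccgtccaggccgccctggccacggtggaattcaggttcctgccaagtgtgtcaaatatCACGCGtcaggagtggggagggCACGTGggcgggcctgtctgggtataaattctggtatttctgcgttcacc
Bmp8b: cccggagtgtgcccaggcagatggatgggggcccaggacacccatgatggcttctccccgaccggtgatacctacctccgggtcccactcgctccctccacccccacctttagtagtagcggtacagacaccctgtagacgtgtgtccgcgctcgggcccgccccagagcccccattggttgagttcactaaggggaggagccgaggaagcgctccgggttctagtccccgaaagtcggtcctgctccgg
The Fgf21 window held 2 such matches, which begin 72 and 50 bases before the start, and the second of them is the full palindrome CACGTG. The Bmp8b window held 0. Of 32851 promoter windows of this length, 23.5% held CACGNG on either strand and 6.02% held CACGTG. The paired form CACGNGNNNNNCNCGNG, read on both strands, stood in 0.28% of windows and in neither of these. Of Klb, Nrg4, Lep, Adipoq, Retn, Cfd and Rbp4, which the table also lists, 1 of the windows of Rbp4 held CACGNG. Fgfr1 was not scanned. Only this 1 spelling of the paired form was searched, and looser forms were not. A match is a run of letters, and its absence says nothing about binding in the window or elsewhere.

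Klb, the co-receptor that makes a cell responsive to FGF21, was not called in either line. The lowest, median and highest arrays of its brightest probe (A_51_P464394) were 9.86, 10.06 and 10.60 in total-line WT and 9.74, 9.94 and 10.04 in total ChREBP KO. The difference was -0.24 (interval -0.51 to 0.03; limma, adjusted p = 0.153), with 8 of 8 KO arrays below the WT mean. The β-line values were 9.61, 10.08 and 10.78 in WT and 9.60, 9.87 and 10.37 in KO, a difference of -0.13 (interval -0.40 to 0.14). A second, dimmer probe (A_55_P2745433) gave -0.18 and -0.07.

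Fgfr1, the tyrosine kinase receptor through which FGF21 acts in fat, rose in both KO lines and was the only member called in ChREBPβ KO. Its brightest probe (A_55_P2057777, chr8:26685072-26685131, mm9) had a lowest, median and highest value of 12.58, 12.66 and 12.77 in total-line WT and of 12.93, 13.11 and 13.26 in total ChREBP KO, without overlap. The rise was 0.43 ± 0.06 (SE), or 1.35-fold (limma, adjusted p = 7.52e-07). Arrays of the β line read 12.23, 12.34 and 12.66 in WT and 12.48, 12.67 and 12.92 in KO, which overlapped through the highest WT array. The rise there was 0.31 ± 0.06, or 1.24-fold (adjusted p = 0.0034), with 8 of 8 KO arrays above the WT mean. It was seen in each of the 4 wash batches (0.26 to 0.42 in the β line, 0.33 to 0.52 in the total line). The effects of the KOs differed by -0.13 (interval -0.30 to 0.05; adjusted p = 0.331). Without the arrays of high liver list, which left 3 KO and 4 WT arrays of the β line, the β-line difference was 0.22 and was no longer called (adjusted p = 0.194).

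Of the 4 Fgfr1 probes, 3 were called higher in total ChREBP KO (0.33 to 0.43) and 2 in ChREBPβ KO. Probe A_65_P11598 gave 0.37 and 0.30 in the total and β line, and A_52_P136162 gave 0.33 and, not called, 0.21 (adjusted p = 0.185). Probe A_55_P2506940, which lies farthest along the gene at chr8:26686086-26686145, gave 0.01 and 0.07 with intervals of -0.18 to 0.19 and -0.11 to 0.26.

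**Figure D3:**
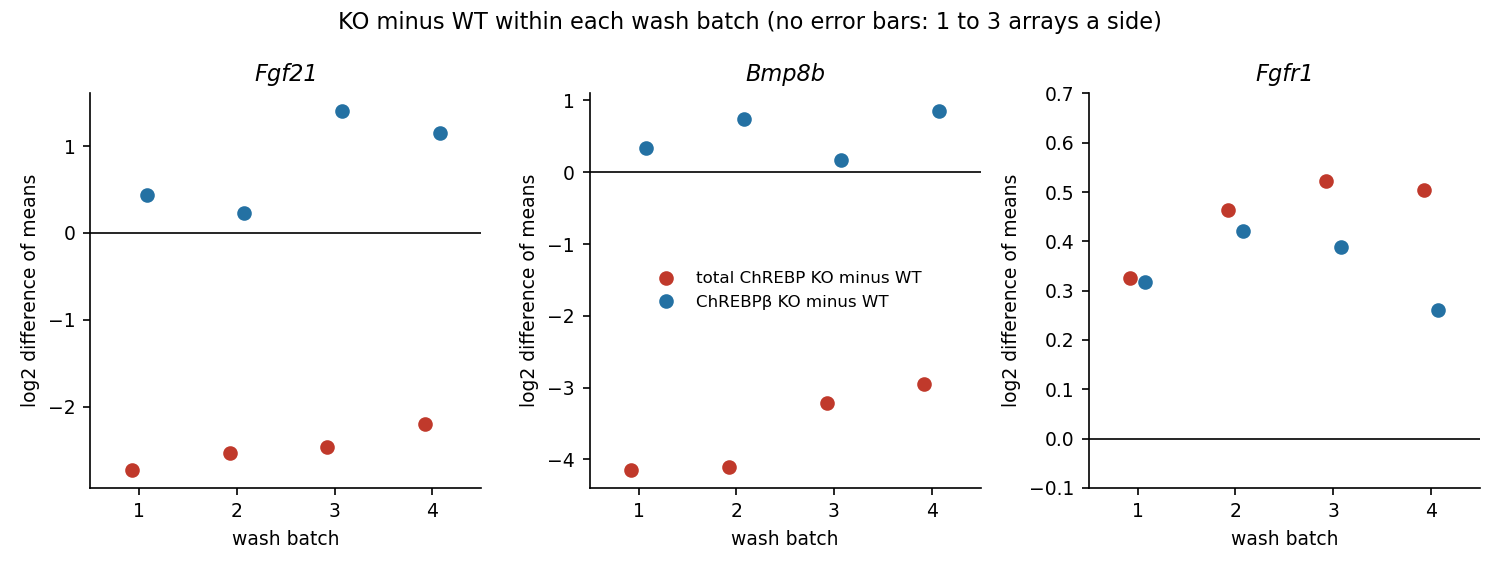
KO minus WT difference of means in log2 units (vertical axis) within each of the 4 wash batches (horizontal axis) for Fgf21, Bmp8b and Fgfr1, in total ChREBP KO (red) and ChREBPβ KO (blue); a batch holds 1 to 3 arrays a side, so no error is drawn. Fgf21 and Bmp8b are below 0 in total ChREBP KO and above 0 in ChREBPβ KO in every batch, and Fgfr1 is above 0 throughout.

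The other genes around the FGF21 receptor gave 10 that passed the filter among 11 listed, of which 3 rose and 1 fell in total ChREBP KO, where 44.1% of all genes were called, and 1 rose in ChREBPβ KO, where 2.7% were (median differences -0.08 and 0.00). Fgf1, a ligand of all FGF receptors, rose by 0.67 in ChREBPβ KO (limma, adjusted p = 0.000449) and gave -0.08 in total ChREBP KO, and the effects differed (adjusted p = 0.000507). The study had already listed Fgf1 as raised in ChREBPβ-deficient brown fat from these same arrays. Fap, the protease that inactivates circulating human FGF21, fell by 0.50 when both isoforms were missing (adjusted p = 5.64e-05), and the receptors Fgfr2 and Fgfr3 rose by 0.39 and 0.28.

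Of 24 genes of the signal chain behind FGF receptors and its early targets, 4 rose and 8 fell in total ChREBP KO (all genes: 22.9% higher and 21.1% lower) and 1 rose in ChREBPβ KO (all genes: 1.37% higher), with medians of -0.16 and 0.05. The shares called, 12 of 24 and 1 of 24, lay near the 44.1% and 2.7% of all genes. Etv5, a transcription factor induced by FGF signals, fell by 0.53 when both isoforms were missing (limma, adjusted p = 1e-05). Dusp6, a phosphatase that FGF signals induce and that switches ERK off, rose by 0.50 in ChREBPβ KO (adjusted p = 0.033) and gave -0.28 in total ChREBP KO (adjusted p = 0.0821).

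Bmp8b, which encodes a BMP family ligand of thermogenic fat, had the largest difference among the members. On its single probe (A_51_P411926, chr4:122802506-122802565, mm9) the lowest, median and highest arrays were 7.85, 8.18 and 9.31 in total-line WT and 4.54, 4.74 and 5.26 in total ChREBP KO. The highest KO array lay far below the lowest WT array, and only 4 of the 8 KO arrays had the spot well above background, against 8 of 8 in each other group. The difference was -3.59 ± 0.20 (SE), a 12.0-fold lower level (limma, adjusted p = 5.54e-16), and because the KO spots were so dim it depended on the treatment of background: -2.50 with normexp and -5.48 with the processed signal. Within wash batches it ran from -4.15 to -2.95.

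Bmp8b was not called in ChREBPβ KO. Its values were 7.55, 8.34 and 8.62 in WT and 7.76, 8.83 and 9.18 in KO, and the WT mean was exceeded on 7 of 8 KO arrays. The difference was 0.52 ± 0.20 (interval 0.12 to 0.92; limma, adjusted p = 0.178). Without ChREBPβ KO replicate 7, the lowest array of its group, it was 0.67 and was called (adjusted p = 0.0443). The KO effects on Bmp8b differed by 4.11 ± 0.28 (adjusted p = 5.23e-13), a size that rests on the dim KO spots and ran from 2.96 with normexp to 6.03 with the processed signal.

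The receptors for the remaining members were measured with all 20 listed genes. In total ChREBP KO 5 rose and 8 fell (median -0.10), beside 22.9% and 21.1% of all genes, and in ChREBPβ KO 1 rose (median -0.01), beside 1.37%. Bmpr1b, a type I BMP receptor, was higher in both KOs, by 1.16 when both isoforms were missing (limma, adjusted p = 6.69e-12) and by 0.36 when only β was (adjusted p = 0.0282). Its β-line values were close to background, with means of 4.74 in WT and 5.10 in KO. Only 2 of 8 β-line WT arrays had the spot well above background, against 8 of 8 in each other group, so the size of that rise is uncertain. Bmpr1a, the related receptor, rose by 0.52 and Acvr1c, an activin receptor of fat cells, by 0.76 in total ChREBP KO. Adipor2, a receptor for adiponectin, fell by 0.69 there (adjusted p = 1.21e-11) and gave -0.04 in ChREBPβ KO.

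Nrg4, an EGF-family ligand that brown fat releases, was read by 4 probes that disagreed in total ChREBP KO. The brightest (A_55_P2185900, chr9:55068030-55068089, mm9, at the far end of the gene on the minus strand) had a lowest, median and highest value of 12.32, 12.43 and 12.89 in total-line WT and of 12.37, 12.74 and 12.86 in KO, and its difference of 0.18 was not called (interval -0.06 to 0.42; limma, adjusted p = 0.234). Probe A_51_P159803 read 12.01, 12.20 and 12.56 in WT and 12.78, 12.93 and 13.08 in KO, without overlap, a rise of 0.66 ± 0.10 (adjusted p = 1.52e-06). Probe A_55_P2185905, whose coordinates (chr9:55075745-55084303, mm9) span more than the probe's own length, also parted the groups without overlap and rose by 0.57 (adjusted p = 9.62e-06). Probe A_55_P2115330, nearest to the gene's start, is annotated to another transcript record than the rest and gave 0.25 (adjusted p = 0.217). The mean of the 4 probes was higher by 0.41 and was called (adjusted p = 0.000938).

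None of the Nrg4 probes was called in ChREBPβ KO, where the differences ran from -0.11 to 0.10. The brightest probe read 12.67, 13.19 and 13.48 in β-line WT and 12.69, 13.09 and 13.22 in KO, which overlapped almost entirely. The KO effects differed on the same pair of probes that rose in total ChREBP KO, by -0.77 and -0.67 (limma, adjusted p = 8.65e-05 and 0.000351), and were not called as different on the other pair.

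**Figure D4:**
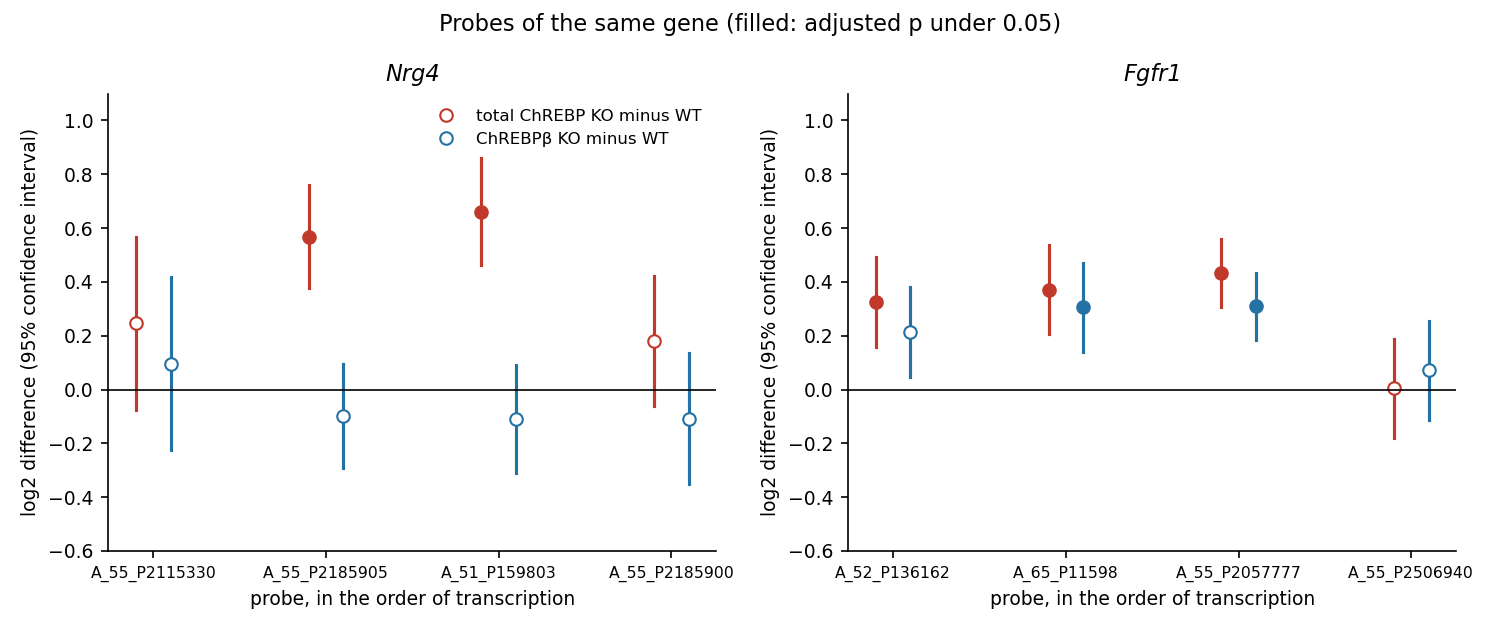
Log2 difference of KO minus WT with its 95% confidence interval (vertical axis) for each of the 4 probes of Nrg4 and of Fgfr1, placed in the order of transcription (horizontal axis), in total ChREBP KO (red) and ChREBPβ KO (blue); filled points were called. The 2 inner Nrg4 probes lie at 0.57 and 0.66 in total ChREBP KO while the outer probes were not called, and the last Fgfr1 probe lies at 0.01.

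Adipoq encodes adiponectin, a fat hormone that sensitises tissues to insulin. Its probe (A_51_P458451) read 15.70, 15.94 and 16.38 (lowest, median and highest array) in total-line WT and 16.45, 16.61 and 16.80 in total ChREBP KO. All KO arrays lay above all WT arrays. Adipoq rose by 0.65 ± 0.08 (SE), or 1.57-fold (limma, adjusted p = 1.85e-08). β-line arrays read 15.78, 15.98 and 16.11 in WT and 15.90, 16.03 and 16.22 in KO, and the difference of 0.07 was not called (interval -0.08 to 0.23). The KO effects differed by -0.58 (adjusted p = 0.000136).

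Lep, the gene of the satiety hormone leptin, varied little between arrays, with a pooled SD of 0.09 that was larger than that of only 6.82% of all genes. It read 7.93, 8.07 and 8.19 in total-line WT and 8.27, 8.37 and 8.45 in total ChREBP KO, again without overlap. The rise was 0.30 ± 0.05, or 1.23-fold (limma, adjusted p = 8.78e-06). The β-line arrays stood at the level of total ChREBP KO, at 8.24, 8.37 and 8.57 in WT and 8.27, 8.48 and 8.56 in KO. Their difference of 0.07 was not called (interval -0.03 to 0.17), and the KO effects differed by -0.23 (adjusted p = 0.0154).

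Cfd, which encodes the complement protease adipsin, was read by a pair of bright probes, and no spot of the arrays was flagged as saturated. Quantile normalization still holds such bright probes to few shared values, so the size of their differences is uncertain. The brightest (A_51_P156955) had 17.86, 17.95 and 18.36 in total-line WT and 18.19, 18.27 and 18.53 in total ChREBP KO. The groups overlapped through the highest WT array, and 8 of 8 KO arrays were above the WT mean. Cfd rose by 0.30 ± 0.08, or 1.23-fold (limma, adjusted p = 0.00491), and by 0.52 on the other probe (adjusted p = 0.000135). Over the alternatives in processing and array set the rise ran from 0.26 to 0.48. On β-line arrays the brightest probe read 17.53, 17.84 and 18.04 in WT and 17.39, 17.76 and 18.12 in KO, a difference of -0.08 (interval -0.25 to 0.10). The KO effects differed by -0.37 (adjusted p = 0.0222).

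**Figure D5:**
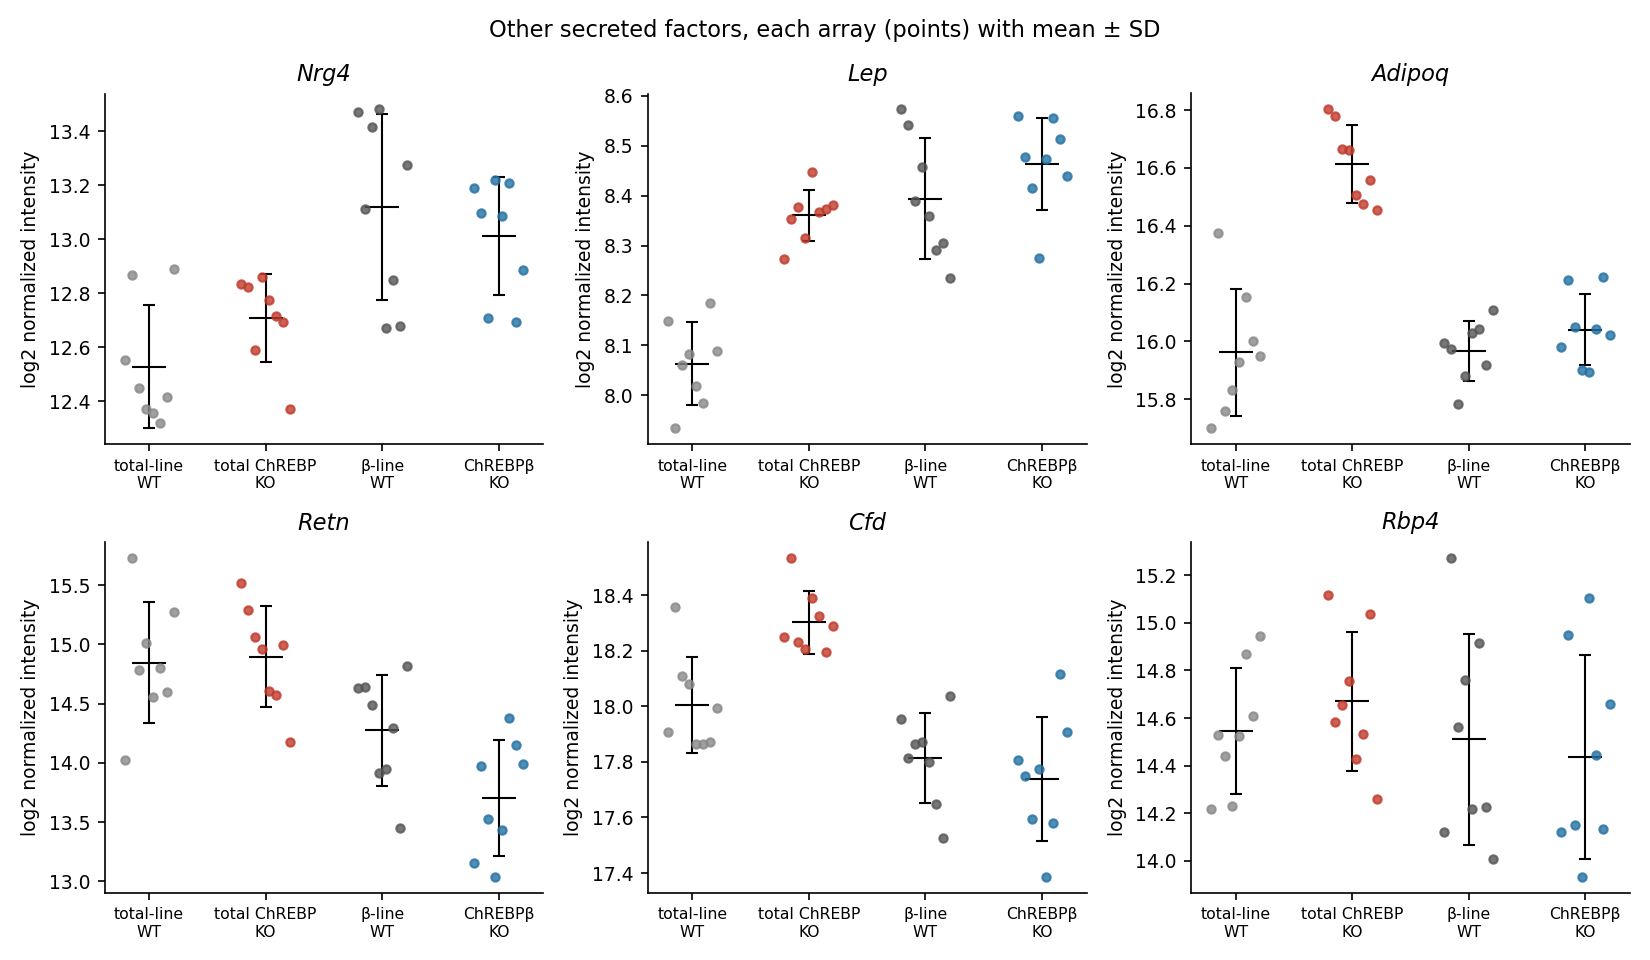
Log2 normalized intensity (vertical axis, not starting at 0) of Nrg4, Lep, Adipoq, Retn, Cfd and Rbp4 on each of the 8 arrays of the 4 groups (points), with the group mean and SD (bars). Lep and Adipoq are higher in total ChREBP KO than in its WT group without overlap, and Retn and Rbp4 overlap between KO and WT of both lines.

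Retn and Rbp4 were called in neither KO and spread widely between arrays of a group. Retn, the gene of resistin, which opposes insulin action in mice, read 14.02, 14.79 and 15.73 in total-line WT and 14.17, 14.98 and 15.52 in total ChREBP KO, a difference of 0.05 (interval -0.41 to 0.51; limma, adjusted p = 0.883). In the β line it read 13.45, 14.39 and 14.82 in WT and 13.04, 13.75 and 14.38 in KO, and 7 of 8 KO arrays were under the WT mean. That difference was -0.57 (interval -1.03 to -0.11; adjusted p = 0.209), its sign changed between wash batches (-1.55 to 0.41), and without the arrays of high liver list it was -1.23 (adjusted p = 0.036). A second probe gave 0.01 and -0.51.

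Rbp4 encodes the carrier of retinol in blood and is expressed in liver and fat. It read 14.22, 14.53 and 14.95 in total-line WT and 14.26, 14.62 and 15.12 in total ChREBP KO, a difference of 0.12 (interval -0.23 to 0.48; limma, adjusted p = 0.6). For the β line the values were 14.01, 14.39 and 15.27 in WT and 13.93, 14.30 and 15.10 in KO, a difference of -0.07 (interval -0.43 to 0.28). The 5 ChREBPβ KO arrays with a high liver list had Rbp4 at 14.14 to 15.10 and the 3 others at 13.93 to 14.15. In β-line WT the 4 arrays with a high list (14.22 to 15.27) and the 4 with a low one (14.01 to 14.76) overlapped. All 8 total ChREBP KO arrays had a low list, and their Rbp4 values of 14.26 to 15.12 reached as high as those of ChREBPβ KO. That sets arrays of different lines side by side, and the part of liver transcripts in the Rbp4 values was not tested.

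Another 25 secreted factors of brown fat were followed beside the members. In total ChREBP KO 9 rose and 3 fell (median 0.28), where 22.9% of all genes were higher and 21.1% lower, and in ChREBPβ KO 3 rose (median 0.08), where 1.37% were higher. Gdf15, a stress hormone that curbs feeding, was higher by 2.22 without both isoforms (limma, adjusted p = 0.000296) and gave 1.45 in ChREBPβ KO (adjusted p = 0.105), with an SD between arrays of 0.48 to 1.34. Ptgds, the prostaglandin D synthase, rose by 1.42, Apln, the gene of the vasodilator apelin, by 1.07 and Rarres2, the gene of chemerin, by 1.05 in total ChREBP KO. Those called in ChREBPβ KO were Epdr1 (1.00, adjusted p = 0.0145), C1qtnf7 (0.96, adjusted p = 0.000255) and Metrnl (0.45, adjusted p = 0.0104), all of which lie outside the naming rule and were named after their values were seen. The study, from these same arrays, had already listed Epdr1 and C1qtnf7 as raised in brown fat of ChREBPβ-deficient mice. Since the list was chosen with earlier results known, the count of 3 is no test against the share of all genes.

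The WT groups of the lines, which share genotype at Mlxipl but come from different lines, differed in 4 of the 10 genes, against 38.9% of all genes. In β-line WT, Nrg4 was higher by 0.59 ± 0.12 (limma, adjusted p = 0.000191) and Lep by 0.33 ± 0.05 (adjusted p = 2.97e-06, no overlap between 7.93 to 8.19 and 8.24 to 8.57). Fgfr1 was lower by a difference of -0.30 (adjusted p = 0.000252) and Retn by one of -0.57 (adjusted p = 0.0423). The Retn call was lost under many alternatives, among them the authors' deposited table. Fgf21, Klb, Bmp8b, Adipoq, Cfd and Rbp4 were not called on their brightest probe (-0.19 to 0.00). These groups also differed in muscle markers, of which all 11 were lower in β-line WT with a median of -6.44. With the muscle and liver list means as covariates Fgfr1 (-0.18, adjusted p = 0.279) and Retn (-0.22, adjusted p = 0.766) were no longer called, but since the muscle list did not overlap between these groups, line and muscle markers cannot be told apart, and the calls over all 37306 probes went from 14626 to 5037. In total ChREBP KO the same covariates left Fgf21 at -2.41 and Bmp8b at -3.60.

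The genes whose 32 array values ran closest to those of Fgf21, after each probe was centred on its own mean, were Mlph, Mid1ip1, Oscp1, Farp1 and Pqlc3, with root mean square distances of 0.55 to 0.59 against a median of 1.32 over 16892 gene symbols. Because the likeness was taken over these arrays, their differences follow from the choice and carry no test: they were -2.61 (Farp1) to -1.82 (Pqlc3) in total ChREBP KO and 0.08 (Farp1) to 0.45 (Pqlc3) in ChREBPβ KO. Mid1ip1, whose product promotes the activity of acetyl-CoA carboxylase in fatty acid synthesis, went from 14.64 ± 0.13 (SD, n = 8) in total-line WT to 12.62 ± 0.16 in KO and from 14.75 ± 0.30 to 14.91 ± 0.25 in the β line. The likeness was measured on arrays that share the same genotype contrast and scaling, and it is a description.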

How the data were processed

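The authors hybridised Cy3-labelled cRNA of brown fat to 1-colour Agilent 8x60K arrays and read them with Agilent Feature Extraction 10.10.1.1, per the submitters' processing notes. The deposited scanner files hold unnormalized median spot intensities, and the authors' deposited table holds log2 values, filtered and quantile normalized per their methods. Probe coordinates are mm9. Following the study's filter, spots were retained that Feature Extraction flagged as found, significant and clear of background on 26 or more arrays of 32 or on 6 or more of a group (39985 of 59305 spots). Their log2 median intensities were quantile normalized, and copies of a probe were replaced by their median (37306 probes). These values differed from the deposited table by 0.00298 on average. Per array 64.4% to 71.1% of spots exceeded background, 0 were saturated, and the number of arrays limits precision.

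Each probe was fitted with limma 3.58.1 (R 4.3.3) over 4 group means of 8 arrays, and two-sided p-values were adjusted (Benjamini-Hochberg) across the 37306 probes of each contrast. The fit was tested on simulated data. Fgf21 was also tested by exact permutation. Within-batch values, blocks for wash batch, slide and replicate number, other backgrounds, scalings and filters, the mean over a gene's probes, array weights and leaving out each array were tried, and the fits with the liver and muscle lists or without arrays of high liver list were added after the data had been seen. Replicate numbers were not taken to pair the samples, since the labels give no pairing and not every pair correlated above 0.1 (0 of 8 pairs in the total line, -0.308 to 0.093, and 6 of 8 in the β line, -0.264 to 0.583). The members and lists were chosen with earlier results of these data known. Named were all members, Mlxipl, up to 4 called genes of each other list with the largest difference, and the 5 genes closest to Fgf21, except that some genes this rule would name are not reported here. Promoter windows came from RefSeq (GRCm38.p6).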

Additional observations from a re-analysis of the deposited data

Results flagged for a closer look

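Among 40 groups of 8 arrays tested for a single distant array, 2 had one, and chance gives about 1 in 20. Bmp8b read 5.26 on total ChREBP KO replicate 7, above the next array of its group at 4.86. It read 7.76 on ChREBPβ KO replicate 7, below the next array at 8.67.

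The KO effects differed between the lines, by the limma test of the difference itself, for 5 members. As ChREBPβ KO effect minus total ChREBP KO effect, the difference was 3.35 for Fgf21 and 4.11 for Bmp8b (2.96 to 6.03 over its alternatives). It was -0.58 for Adipoq, -0.37 for Cfd and -0.23 for Lep. For Fgf21, Bmp8b, Adipoq, Cfd and Lep the total ChREBP KO effect was the one past the threshold, and the ChREBPβ KO effect alone was not.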

How the results depend on the processing

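In total ChREBP KO the number of members called stayed at 6 when any 1 array was left out and was 7 without the arrays of high liver list, where the brightest Nrg4 probe gained a call (0.23, adjusted p = 0.048), and the difference between KO effects was then called for 7 members in place of 5, through Nrg4 (-0.60, adjusted p = 0.014) and Retn (-1.40, adjusted p = 0.00592). In ChREBPβ KO it was 1 to 2 with 1 array left out, and 2 in place of 1 with normexp background, with array weights and with the liver and muscle covariates, in each case through Fgf21 (adjusted p = 0.044, 0.0283 and 0.0403 by limma). Over its alternatives the adjusted p of Fgf21 in ChREBPβ KO ran from 0.00813 to 0.406, and its difference from 0.73 to 1.20. The exact permutation p of Fgf21 ran from 0.00264 to 0.0474 in ChREBPβ KO with 1 array left out. It was 0.0571 without the arrays of high liver list, which left 3 KO and 4 WT arrays that did not overlap and too few splits for a comparison. Between the WT groups 2 members were called with the liver and muscle covariates in place of 4 and 3 to 5 with 1 array left out. Retn, with a limma adjusted p of 0.0127 to 0.766 over all alternatives, lost its call between the WT groups under many of them. These were leaving out replicate 2, 3, 4, 6 or 8 of the total-line WT or replicate 4, 5, 6 or 7 of the β-line WT (adjusted p = 0.0517 to 0.111). The authors' deposited table, scaling to the 75th percentile, no filter on dim probes and a fit of these groups only also removed the call. So did array weights, limma's trend and robust options, the liver and muscle covariates and the removal of arrays with a high liver list. Cfd gained a call without replicate 8 of the β-line WT (0.0413), with the deposited table and with the mean over its probes. With the replicate number as a block shared by all 4 groups, the counts remained at 6, 1, 5 and 4 (total ChREBP KO, ChREBPβ KO, the difference and the WT groups). That block also joins arrays of different lines, so it does not test a pairing of KO with WT within a line. No pairing is given by the labels. No called member reversed its sign under the alternatives run. Scaling the median intensity to its 75th percentile moved the median difference of all probes in total ChREBP KO from 0.0154 to 0.106, and Lep and Cfd were still called. With only probes above background on all arrays, Bmp8b had no value. The cause of these changes was not tested. The precision of dim probes such as Bmp8b in total ChREBP KO is limited by signal over background.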
